A study of Mus musculus with 12 samples.

Results

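The clustered histone genes are the genes whose symbols begin with Hist1h, Hist2h, Hist3h or Hist4h in the GENCODE M21 mouse annotation. All 70 were present among the 35855 genes for which RNA-seq values of the 12 libraries could be summed, and they comprise 6 H1, 20 H2A, 19 H2B, 12 H3 and 13 H4 genes. Membership followed the symbol alone, and 67 are annotated as protein-coding and 3 as pseudogenes. On GRCm38, 56 of them lie on chromosome 13, 10 on chromosome 3, 3 on chromosome 11 and 1 on chromosome 6. The libraries came from spleen CD8 T cells of WT mice and of TCF-1 cKO mice on a C57BL/6 background, in 4 groups of 3 libraries. In the TCF-1 cKO mice a floxed Tcf7 gene is deleted by Cre under the Cd4 promoter, and the donors of the WT group are labelled wild type. Pre-transplant cells were sorted from donors, and post-transplant cells were donor cells sorted from the spleens of irradiated BALB/c recipients at day 7. Labels do not say whether replicates were separate animals, so p-values measure the spread between these libraries.

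Histones are the proteins around which DNA is wound, with H2A, H2B, H3 and H4 forming the core of the nucleosome and H1 binding the linker DNA between nucleosomes. Most clustered histone genes are replication-dependent: they are transcribed as cells copy their DNA, they have no introns, and their mRNAs end just after a conserved stem-loop in place of a poly(A) tail. The stem-loop binding protein holds this end, and the mRNAs are degraded when DNA synthesis stops. Some clustered genes can also make longer, polyadenylated mRNAs that read past the stem-loop and are found in cells that do not divide. The cDNA here was made with an oligo-dT-primed kit, which copies polyadenylated RNA and RNA with internal runs of A, so the values describe what that priming captured.

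The stem-loops are shown for the members on which the results turn, each read from the annotated transcript 5′ to 3′ with the stem-loop in capitals and the bases around it in lower case.
Hist1h2ap: aaaaaaaaaaaaGGCTCTTTTCAGAGCCat
Hist1h2ao: aaaaaaaaaaaaGGCTCTTTTCAGAGCCat
Hist1h2ae: aaaaaaaacaaaGGCTCTTTTCAGAGCCat
Hist1h1c: aacaatccaaaaGGCTCTTTTCAGAGCCac
Hist1h4d: ccaaaaaccaaaGGCCCTTTTCAGGGCCac
Hist1h4m: ttctcaactaaaGGCCCTTTTCAGGGCCat
Hist1h4n: ttctcaactaaaGGCCCTTTTCAGGGCCat
Hist1h3i and Hist1h1b are among the 24 members whose annotated transcripts hold no such sequence. These 24 had a median transcript length of 402 bases, against 482 in members whose transcript ends near a stem-loop. Whether the sequence is missing from their mRNAs or only from the annotation was not tested. A stem-loop was found in 46 members and in 0.148% of the 58797 annotated protein-coding transcripts. In 23 members the annotated transcript ended within 100 bases after it, and in another 23 it extended further. Hist1h2ap and its copy Hist1h2ao carry a run of 12 A directly before the stem-loop, as the first and second lines show. An A run of at least 10 occurs in 4 members, the others being Hist1h2ac and Hist1h2be, and in 9.27% of annotated protein-coding transcripts.

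Members share much of their sequence. In the median member 61% of 31-base stretches also occur in another gene, and in 43 members more than 50 percent do, so that reads cannot always be assigned to 1 copy. The pair that shows this best is Hist1h4m (chr13:21811746-21812147, plus strand) and Hist1h4n (chr13:21831767-21832196, minus strand), both single-exon H4 genes. Over the 402 bases of Hist1h4m the transcripts differ by 1 base, given as G36A when counted from the first base of Hist1h4m, and Hist1h4n is longer by 28 bases at its 3′ end. Both sequences are given from base 24 to base 53, with the differing base in capitals, and the start codon follows shortly after it.
Hist1h4m: agttttgtcttcGtcatgtctggtcgtggc
Hist1h4n: agttttgtcttcAtcatgtctggtcgtggc
Of the 372 stretches of 31 bases in Hist1h4m, 341 occur in Hist1h4n as well. Hist1h2ao and Hist1h2ap lie beside them, Hist1h2ao next to Hist1h4m and Hist1h2ap next to Hist1h4n, with 422 of 450 stretches of Hist1h2ao present in Hist1h2ap. Because near-identical copies can exchange reads, classes and copy pairs are also given as sums.

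Promoters from RefSeq (GRCm38.p6, 250 bases before to 50 bases after the start) were found for 62 members. The CCAAT box, searched as CCAAT on both strands, was present in 53 of these (85.5%) and in 37.4% of all 32851 promoters. The sequence TATAAA, searched likewise, was present in 35 (56.5%) and in 13.6% of all promoters. The windows of 2 members with large stage changes, an H2A and an H4 gene, are printed with both motifs in capitals on whichever strand they lie.
Hist1h2ap (chr13:21833426-21833725, minus strand): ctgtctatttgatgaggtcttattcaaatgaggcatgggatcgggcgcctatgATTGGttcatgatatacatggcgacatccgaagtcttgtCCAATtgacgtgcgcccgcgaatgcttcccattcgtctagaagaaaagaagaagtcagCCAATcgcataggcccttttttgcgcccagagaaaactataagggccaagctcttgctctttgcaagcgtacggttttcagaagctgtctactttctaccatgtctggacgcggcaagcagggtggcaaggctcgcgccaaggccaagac
Hist1h4d (chr13:23581318-23581617, plus strand): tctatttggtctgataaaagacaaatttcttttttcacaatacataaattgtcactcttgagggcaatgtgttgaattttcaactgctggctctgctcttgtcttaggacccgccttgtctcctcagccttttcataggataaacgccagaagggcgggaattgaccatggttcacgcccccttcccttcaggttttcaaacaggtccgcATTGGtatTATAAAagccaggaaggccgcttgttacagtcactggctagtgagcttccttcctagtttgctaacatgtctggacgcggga
A match of these letters is a description of the window and was not tested against the measurements.

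Depth and cell content set limits on every comparison. Library totals were 18978963 to 28884454 estimated counts in WT pre-transplant, 4520270 to 9577076 in TCF-1 cKO pre-transplant and 18184814 to 32657005 in post-transplant libraries. All libraries are labelled as sorted CD8 T cells, 1 of them with a second label naming CD4 T cells, but B cell RNA was abundant in the pre-transplant libraries. In normalized CPM, counts scaled to a common depth by TMM over the 12 libraries, 7 B cell markers summed to 23450.5 to 25699 in WT pre-transplant and 8463 to 27278 in TCF-1 cKO pre-transplant libraries, against 659 to 1258 and 368 to 638 post-transplant. The 5 CD8 T cell markers summed to 841 to 999.6 and 235 to 397 before and to 4141 to 7432 and 4268 to 5549 after transplant, and no marker of either list was at 0 in a whole group. Tcf7, the gene deleted in the TCF-1 cKO, was at 117, 76.1 and 166 in WT and 26.3, 34.3 and 62.9 in TCF-1 cKO pre-transplant libraries. Post-transplant it was at 26.9, 26.5 and 10.7 in WT and 14.6, 13.7 and 14.1 in TCF-1 cKO libraries. The genotype difference there was -0.91 on the log2 scale (adjusted p = 0.308 by edgeR). WT replicate 3 thus had less Tcf7 than any TCF-1 cKO library, and whether its label is right was not tested. In bulk samples fewer cells of a type and less RNA per cell cannot be told apart.

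The members differed widely in level. TPM is scaled for length, but not for how well oligo-dT priming captured each gene, so it ranks captured RNA. The 70 members together made up 0.137, 0.174 and 0.139% of all TPM in the WT pre-transplant libraries. In the TCF-1 cKO pre-transplant libraries they made up 0.0939, 0.0607 and 0.29%. Post-transplant they made up 3.34, 4.88 and 1.44% in WT and 1.29, 1.92 and 0.973% in TCF-1 cKO libraries. Hist1h2ap, an H2A gene, held 59.4% to 93.9% of the members' TPM in every library. Its rank by TPM among all genes was 153, 121 and 148 in WT and 196, 323 and 55 in TCF-1 cKO libraries before transplant, and 1, 1 and 8 and 8, 4 and 13 after it. It had the highest TPM of the library in WT post-transplant replicates 1 and 2. The part of its run of 12 A in this level was not tested. Its copy Hist1h2ao, by contrast, reached a mean of 4.75 TPM in the WT post-transplant libraries, where Hist1h2ap reached 29599. The 2 copies share most of their sequence, so these values describe how reads were assigned between them. The next members by mean TPM over the 12 libraries were Hist1h2ae (171), Hist1h3i (134), Hist1h4n (119.8) and Hist2h2aa1 (119).

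With Hist1h2ap set aside, H2A was still the class with the largest share of the members' TPM in 9 of 12 libraries, and H4 was in the other 3, WT post-transplant replicate 3 and TCF-1 cKO post-transplant replicates 1 and 3. Without it, H2A genes held 39.2% to 56.7% of the members' TPM pre-transplant and 18.5% to 49.5% post-transplant, and H4 genes 14.2% to 25.7% and 16% to 42.7%. H2B genes held 12.3% to 29.5% before and 10% to 12.8% after transplant. Pre-transplant libraries had counts for 34 to 54 of the 70 members and post-transplant libraries for 64 to 66.

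The first question was how the members changed between donor cells and cells at day 7 post-transplant. In WT libraries, 37 members were higher post-transplant and 0 lower at an FDR below 0.1 by edgeR's quasi-likelihood test, of 61 members that passed the filter on low counts. Of all 16790 genes tested, 9.68% were called higher and 10.3% lower. In TCF-1 cKO libraries, 45 of 57 members tested were higher and 0 lower, where 19.7% of all 18535 genes tested were called higher and 16.8% lower. The median log2 fold change of the members tested was 3.60 in WT and 4.60 in TCF-1 cKO libraries, against -0.30 and -0.29 for all genes tested. Members at 0 in a whole pre-transplant group leave the WT median at 3.60 and move the TCF-1 cKO median to 4.57 when they are set to their lower bound. Levels did not overlap between stages for 48 higher members in WT and 49 in TCF-1 cKO, where 15.9% and 23.1% of all genes tested were higher without overlap. The reverse held for 1 member in WT and 0 in TCF-1 cKO, where 16.2% and 23.9% of all genes were lower. DESeq2's Wald test called 47 members in WT and 46 in TCF-1 cKO, and its shares of all genes are not given.

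Every class was higher post-transplant as a sum, with no overlap between the stages in either genotype. Of H2A genes 12 of 16 tested were called higher in WT and 13 of 14 in TCF-1 cKO. The counts were 9 of 11 and 10 of 11 for H3 genes and 7 of 12 and 10 of 11 for H4 genes. They were 5 of 17 and 8 of 16 for H2B genes and 4 of 5 and 4 of 5 for H1 genes. Of all genes tested, 9.68% and 19.7% were called higher. Values were above 0 in 15 and 13 H2A, 11 and 11 H3, 12 and 11 H4, 15 and 14 H2B and 5 and 5 H1 genes. Log2 fold changes are given with their SE. In class H2A the summed normalized CPM was 246, 322 and 257 in WT pre-transplant and 14215, 29727 and 7031 in WT post-transplant libraries, a log2 fold change of 5.70 ± 0.63. TCF-1 cKO libraries had 109.5, 67.6 and 578 before and 6637, 9357 and 4514 after transplant, a log2 fold change of 4.77 ± 0.84. The sum was mostly Hist1h2ap. Without the pair Hist1h2ao and Hist1h2ap, a sum added after the data were seen, the H2A change was 3.26 in WT and 3.25 in TCF-1 cKO. In class H3 the summed normalized CPM was 4.74, 16.4 and 6.4 in WT pre-transplant and 147, 305 and 281 in WT post-transplant libraries, a log2 fold change of 4.45 ± 0.67. TCF-1 cKO libraries had 8, 4.15 and 16 before and 252, 223 and 252 after transplant, a log2 fold change of 4.69 ± 0.54. The H3 genes had been at the lowest summed level before transplant. In class H4 the summed normalized CPM was 22.4, 34.5 and 26.3 in WT pre-transplant and 372, 585 and 923 in WT post-transplant libraries, a log2 fold change of 4.21 ± 0.54. TCF-1 cKO libraries had 23.2, 17.5 and 51.3 before and 789.8, 840.2 and 934 after transplant, a log2 fold change of 4.80 ± 0.50. H3 and H4, which pair in the nucleosome core, had log2 changes between 4.21 and 4.80 over both genotypes. In class H2B the summed normalized CPM was 42.3, 52.1 and 32.4 in WT pre-transplant and 144, 261 and 204 in WT post-transplant libraries, a log2 fold change of 2.0 ± 0.49. TCF-1 cKO libraries had 33.8, 30.8 and 58.9 before and 154, 179.8 and 158 after transplant, a log2 fold change of 1.99 ± 0.38. H2B, the partner of H2A, had the smallest change of the 5 sums. In class H1 the summed normalized CPM was 29.8, 34.8 and 30.1 in WT pre-transplant and 282, 530.3 and 283 in WT post-transplant libraries, a log2 fold change of 3.27 ± 0.51. TCF-1 cKO libraries had 21.5, 22.3 and 22.5 before and 293, 456 and 277 after transplant, a log2 fold change of 3.94 ± 0.39. No test was made on the sums, whose members were tested singly. Without TCF-1 cKO pre-transplant replicate 3 the TCF-1 cKO changes were 6.41 for H2A, 5.43 for H3, 5.51 for H4 and 2.47 for H2B, and WT changes under the offset for GC content and length were 4.40 for H2A and 3.68 for H3. With library totals as the scale the sums were still higher post-transplant, by 0.98 (H2B) to 4.59 (H2A) in WT and 0.46 (H2B) to 3.39 (H2A) in TCF-1 cKO.

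**Figure D1:**
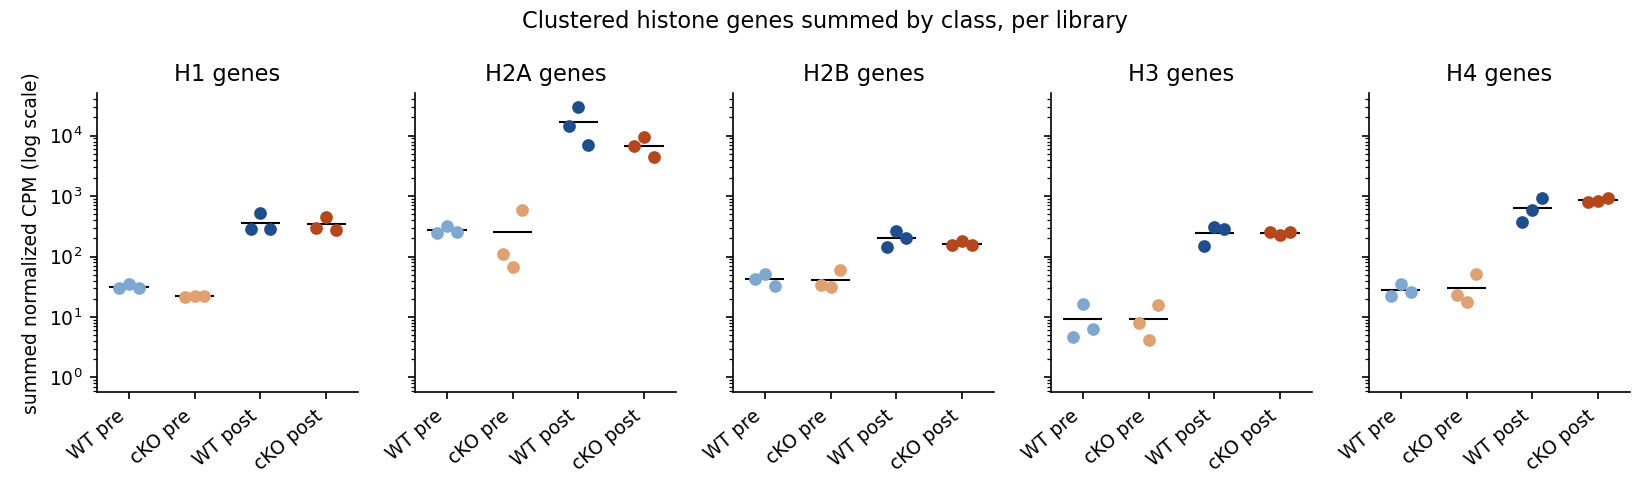
Normalized CPM summed over the clustered histone genes of each class, on a log axis, with 1 point per library and a bar at the mean of 3 libraries. Post-transplant libraries lay above all pre-transplant libraries of their genotype in each class, and H2B changed least.

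Single members carried these changes. Hist1h2ap was at 178, 239 and 193 normalized CPM in WT pre-transplant and 13635, 28409 and 6484 in WT post-transplant libraries (log2 fold change 6.07 ± 0.65, adjusted p = 0.00076 by edgeR). TCF-1 cKO libraries had 73.3, 44.1 and 494 and 6241, 8668 and 4225 (log2 fold change 4.98 ± 0.93, adjusted p = 0.00365 by edgeR). TCF-1 cKO pre-transplant replicate 3 was thus the highest of all pre-transplant libraries for this gene. It was also the highest for the summed B cell markers (27278, against up to 25699 in WT) and erythroid markers (17118, against up to 11575 in WT). The part of either in this value was not tested. Without this library the TCF-1 cKO log2 fold change of Hist1h2ap was 6.90. Hist1h4d, an H4 gene, had the smallest p in both genotypes. It was at 3.7, 4.95 and 2.6 in WT pre-transplant and 153, 269 and 369.9 in WT post-transplant libraries (log2 fold change 5.85 ± 0.62, adjusted p = 0.000725 by edgeR). In TCF-1 cKO it was at 4.75, 2.41 and 4.34 and 295, 338 and 392 (log2 fold change 6.47 ± 0.46, adjusted p = 0.000107 by edgeR). Neither genotype's libraries overlapped between stages for these genes, and an exact permutation test gives p = 0.1 for each, the smallest that 3 against 3 allows.

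Among the other H2A genes, Hist1h2ae rose by 6.87 on the log2 scale in WT and 5.37 in TCF-1 cKO, and Hist1h2ab by 6.74 and 4.60. Both TCF-1 cKO values rested on pre-transplant replicate 3, without which that of Hist1h2ae was 6.98 and Hist1h2ab was at 0 in both remaining pre-transplant libraries. Hist1h2ag, at 0 in 4 of the 6 pre-transplant libraries, rose to 61.4, 79 and 76.9 normalized CPM in WT and 33, 83 and 29.4 in TCF-1 cKO, and Hist1h2ai to 25.3, 36.8 and 31.4 and 23.8, 28.2 and 14. Hist1h2an was at 0 in all 3 TCF-1 cKO pre-transplant libraries and at 13.2, 18.8 and 14.4 post-transplant, at least 61.3-fold higher when 3 counts per library are taken as the floor. Of H3 genes, Hist1h3i went from 1.47, 1.69 and 1.07 to 51.8, 98.8 and 145 in WT and from 0, 0 and 1.7 to 128, 109 and 136 in TCF-1 cKO. Hist1h3b and Hist1h3g were at 0 in all WT pre-transplant libraries, and their WT post-transplant levels were at least 141-fold and 191-fold higher. The H4 gene Hist1h4i rose by 4.06 and 5.08 on the log2 scale. Hist2h2bb, an H2B gene that rose by 5.58 and 6.84, shares all of its sequence with an overlapping gene model and is uncertain for that reason.

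The 6 H1 genes did not move alike. Hist1h1b, the H1.5 linker histone, went from 0, 1.05 and 0.0974 to 118, 169 and 128 normalized CPM in WT libraries (log2 fold change 8.24 ± 1.35, adjusted p = 0.00415 by edgeR). In TCF-1 cKO it went from 1.32, 0.193 and 0.407 to 151, 288 and 168 (log2 fold change 8.28 ± 0.75, adjusted p = 0.000132 by edgeR). Hist1h1c, the H1.2 linker histone and one of the members known to be polyadenylated in resting cells, was at 25.5, 18.4 and 24.3 before and 34, 74.4 and 64.2 after transplant in WT, without overlap but not past the FDR (log2 fold change 1.06 ± 0.53, adjusted p = 0.223 by edgeR). In TCF-1 cKO Hist1h1c rose from 7.65, 8.21 and 12 to 58.3, 57.1 and 52 (log2 fold change 2.58 ± 0.39, adjusted p = 0.00117 by edgeR). Hist1h1e, the H1.4 gene, rose by 4.26 in WT and 3.65 in TCF-1 cKO, and Hist1h1d, the H1.3 gene, by 3.06 and 1.92. Hist1h1a, the H1.1 gene, rose by 7.28 in WT, and in TCF-1 cKO its log2 fold change was 2.60 ± 1.20 (adjusted p = 0.137 by edgeR). Hist1h1t, the testis H1 gene, had counts in 1 WT and 1 TCF-1 cKO pre-transplant library and was listed at 0 in the other 10.

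**Figure D2:**
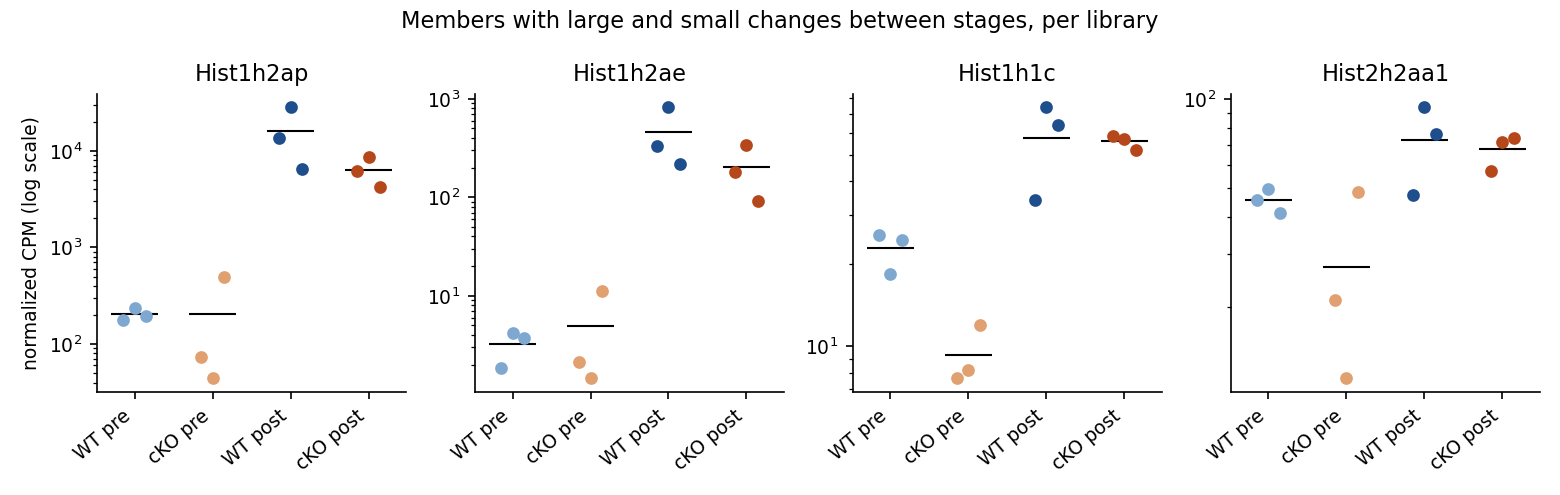
Normalized CPM on log axes for 4 members, with 1 point per library and a bar at the mean of 3. Hist1h2ap and Hist1h2ae rose between stages in both genotypes, while Hist1h1c changed less and Hist2h2aa1 overlapped between the stages in WT.

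Members grouped by the end of their annotated transcript, a feature the choice of genes did not use, had these stage changes. Of members ending near the stem-loop, 15 of 21 tested were called higher in WT and 19 of 21 in TCF-1 cKO. Their median log2 fold changes were 3.98 and 5.03. Of members extending past it, 11 of 21 and 16 of 20 were called higher, with medians of 3.02 and 2.95. Of members with no stem-loop in the annotation, 11 of 19 and 10 of 16 were called higher, with medians of 4.21 and 5.38. Of all genes tested, 9.68% and 19.7% were called higher. Log2 fold changes were above 0 in 21 and 21 members near the stem-loop, 20 and 19 past it and 17 and 14 without one. With members at 0 in a whole group set to their lower bound, the TCF-1 cKO medians were 4.98 near the stem-loop and 4.71 without one, so the order of these 2 groups turned. The difference between the groups was not tested. Of 4 members known to make polyadenylated transcripts, Hist1h2ac was called higher in both genotypes (2.50 ± 0.76 and 1.65 ± 0.47) and Hist1h1c in TCF-1 cKO. Hist1h2bc was at 8.47, 20.8 and 16.5 before and 21.4, 30.1 and 17.4 after transplant in WT libraries, and at 16.5, 13.1 and 25.1 and 13.1, 14.1 and 13.9 in TCF-1 cKO libraries. Hist2h2be was at 8.9, 2.56 and 6.17 and 0.433, 1.17 and 5.64 in WT and 5.8, 2.41 and 6.45 and 4.55, 1.1 and 5.14 in TCF-1 cKO libraries. Both H2B genes overlapped between stages in both genotypes.

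Hist2h2aa1, an H2A gene that shares all of its sequence with another gene model, was the fifth member by mean TPM and changed less than the others at that level. It was at 45.9, 49.8 and 41.4 before and 47.4, 93.9 and 76.4 after transplant in WT (log2 fold change 0.39 ± 0.49, adjusted p = 0.648 by edgeR). In TCF-1 cKO it was called higher (log2 fold change 1.32 ± 0.52, adjusted p = 0.0868 by edgeR), but with library totals as the scale the value was -0.15. The calls of the genotypes, which share no library, had 34 members in common, 91.9% of those called in WT and 75.6% of those called in TCF-1 cKO. Of 55 members tested in both, 9 were called in neither.

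**Figure D3:**
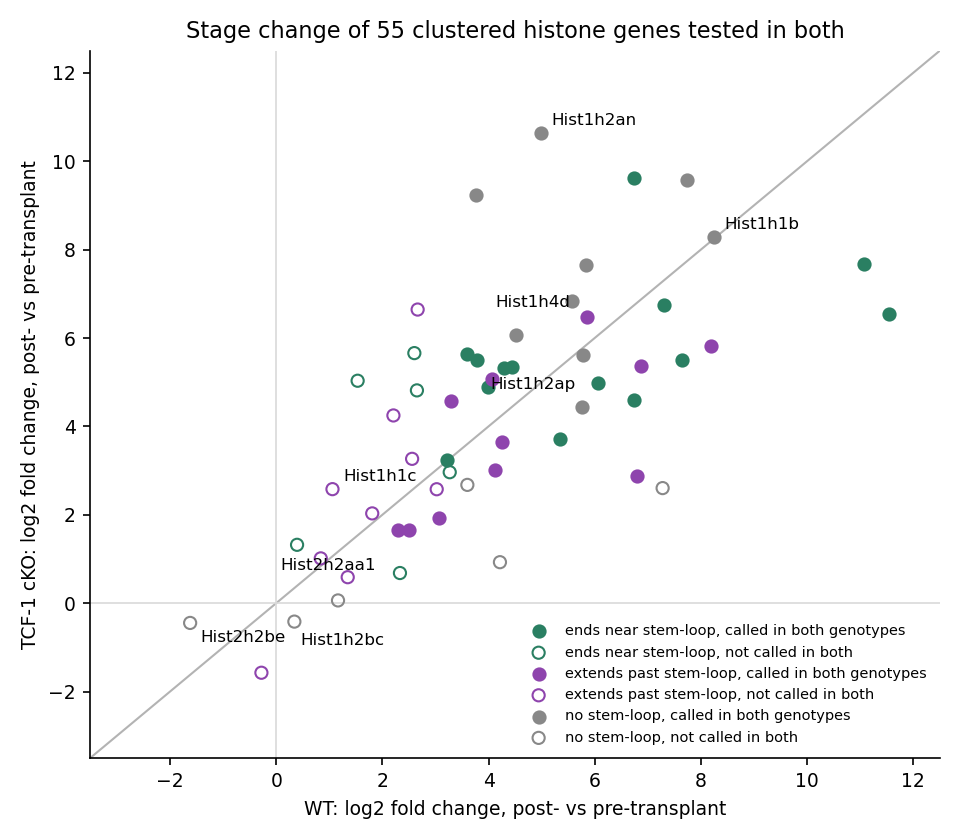
Log2 fold change post- against pre-transplant of the 55 members tested in both genotypes, WT on the x axis and TCF-1 cKO on the y axis, coloured by the end of the annotated transcript and filled where called in both. Most members lie above 4 in at least 1 genotype, and Hist2h2be, Hist1h2bc and Hist2h2aa1 lie near 0 on the WT axis or below it.

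Genes that act with the clustered histones were read in the same comparison, where 9.68% of all genes were called higher in WT and 19.7% in TCF-1 cKO. Counts of genes that rose or fell are counts of genes called. Called lower were 10.3% and 16.8% of all genes. Of 40 genes of S phase and DNA replication, 25 rose in WT and 30 in TCF-1 cKO, with 0 and 1 lower. Their summed normalized CPM was 1459 to 1873 and 992 to 1746 in WT and TCF-1 cKO libraries before transplant and 9174 to 11502 and 9041 to 10400.3 after it. Of 12 replication-independent histone variants, 5 of 9 tested rose in WT and 7 of 10 in TCF-1 cKO. H2afz, the H2A.Z gene, went from 269, 145 and 318 to 3413, 1879 and 6906 normalized CPM in WT and from 184, 162 and 126 to 10247, 8807 and 10304 in TCF-1 cKO libraries. Cenpa, the centromeric H3 variant, rose by 4.37 and 3.93 on the log2 scale. Of 21 histone chaperones, 5 rose in WT and 11 in TCF-1 cKO, where 1 fell, and the WT calls were led by Chaf1b, a subunit of the chromatin assembly factor that loads H3 and H4 behind the replication fork, and Asf1b, which hands H3 and H4 to it. Of 19 genes of histone mRNA 3′ end processing and decay, 1 rose in WT, namely Lsm1, part of the ring that marks mRNAs for decapping, and 9 in TCF-1 cKO, where 1 fell. Slbp, which encodes the stem-loop binding protein, had a log2 fold change of 0.90 ± 0.53 in WT (adjusted p = 0.306 by edgeR) and 3.17 ± 0.37 in TCF-1 cKO (adjusted p = 0.000313 by edgeR). Of 12 transcription factors and cyclins that act on histone genes, 2 rose and 1 fell in WT and 4 rose and 1 fell in TCF-1 cKO, with Ccne2, a cyclin that drives entry into S phase, the riser of smallest p in both and Pou2f1, which encodes an octamer-binding factor, the gene that fell in both. In WT, these 12 genes and the 19 processing genes had counts near the shares of all genes.

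The markers moved with these changes. All 5 CD8 T cell markers rose and all 7 B cell markers fell between stages in both genotypes, so the makeup of the libraries and the stage cannot be told apart. Of erythroid markers 6 of 6 were called lower in WT and 5 of 6 in TCF-1 cKO, and of myeloid markers 5 and 2 of 7. With library totals in place of TMM the median of all genes moved by -0.95 in WT and -1.60 in TCF-1 cKO on the log2 scale. In these fits 32 and 40 members were called, 3 of the latter as lower. The shares of all genes called in them are not given, so these counts do not set members against other genes.

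The second question was whether TCF-1 cKO cells differed from WT cells before transplant. Of 36 members tested, 0 were called by edgeR or by DESeq2's Wald test, where 0.0373% of all genes were called, and 1 had an unadjusted p below 0.05 where 17.7% of all genes did. The median log2 fold change was 0.08, against 0.05 for all genes. Without overlap 4 members were higher and 1 lower, where 16.1% and 14.2% of all genes were. Hist1h2ap was at 203 ± 31.6 (SD, n = 3) in WT and 204 ± 251 (SD, n = 3) in TCF-1 cKO libraries, the latter mean resting on replicate 3. Without that library its log2 fold change was -1.63 and it was called (adjusted p = 0.031 by edgeR). The 0.0373% of genes called holds for the fit with that library, and the share called without it is not given. The linker histone genes Hist1h1c and Hist1h1d did not overlap between genotypes. Hist1h1c was lower in TCF-1 cKO (log2 fold change -1.08 ± 0.50, adjusted p = 0.285 by edgeR). Hist1h1d was at 1.82, 2.7 and 1.88 in WT and 9.67, 8.88 and 2.85 in TCF-1 cKO libraries (log2 fold change 2.02 ± 0.83, adjusted p = 0.254 by edgeR). Class sums differed by -0.28 (H1) to 0.31 (H4) on the log2 scale, each by less than its SE of 0.43 to 0.71. The H1 sum, at 29.8, 34.8 and 30.1 in WT and 21.5, 22.3 and 22.5 in TCF-1 cKO libraries, did not overlap, and with an offset for GC content and length it differed by -0.88 ± 0.44, the other sums by -0.28 (H2B) to 0.27 (H3). The TCF-1 cKO libraries had the smallest totals and lower CD8 T cell markers, whose part in these values was not tested.

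The third question was whether they differed at day 7 post-transplant. Of 63 members tested, 1 was higher and 3 were lower in TCF-1 cKO by edgeR, where 2.51% of all 16026 genes were called higher and 15.4% lower. The member called higher and the 3 called lower are no larger share of 63 than this background. DESeq2's Wald test called 10, of which 9 were lower, and its share of all genes is not given. The median log2 fold change of the members was -0.47 and 22 were above 0, against a median of 0.15 for all genes. Without overlap 3 members were higher and 6 lower, where 23.4% and 17.3% of all genes were, and 7 had an unadjusted p below 0.05 where 28.1% of all genes did. By class the median was -0.93 for H2A, -0.79 for H2B, -0.27 for H1, -0.23 for H3 and 0.16 for H4. The summed H2A genes were at 14215, 29727 and 7031 normalized CPM in WT and 6637, 9357 and 4514 in TCF-1 cKO libraries (log2 fold change -1.59 ± 0.59, SE), and the groups overlapped through the library labelled WT replicate 3. H2B, H3 and H1 sums differed by -0.54 ± 0.42, -0.24 ± 0.41 and -0.33 ± 0.48, with overlap in each. H4 genes were at 372, 585 and 923 in WT and 789.8, 840.2 and 934 in TCF-1 cKO libraries (log2 fold change 0.25 ± 0.39), again with WT replicate 3 inside the TCF-1 cKO range.

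The 3 lower members were an H2B gene, an H3 gene and an H2A pseudogene. Hist1h2bj was at 35.7, 68.2 and 42.5 normalized CPM in WT and 18.9, 24.1 and 17.4 in TCF-1 cKO libraries (log2 fold change -1.52 ± 0.48, adjusted p = 0.0825 by edgeR). Hist1h3c was at 23.9, 42.3 and 27.5 and 17.4, 13.3 and 8.29 (log2 fold change -1.53 ± 0.50, adjusted p = 0.09 by edgeR). Hist1h2al, a processed pseudogene on chromosome 13, was at 1.83, 5.93 and 1.54 and 0.525, 0.785 and 0.619 (log2 fold change -2.51 ± 0.83, adjusted p = 0.0924 by edgeR). All WT libraries lay above all TCF-1 cKO libraries in these 3 genes. Hist1h2ap had the same direction and overlapped (log2 fold change -1.62 ± 0.59, adjusted p = 0.119 by edgeR), as did Hist1h1e at 111, 258 and 52.8 and 44.1, 78.6 and 34.2 (log2 fold change -1.69 ± 0.70, adjusted p = 0.158 by edgeR). The other H1 genes had log2 fold changes from -0.83 (Hist1h1a) to 0.32 (Hist1h1b) and overlapped. Leaving out any 1 of the other 5 libraries ended all 4 calls, while leaving out the library labelled WT replicate 3 gave 11 calls, 10 of them lower and Hist1h2ap among them at -2.08 (adjusted p = 0.0104 by edgeR). The share of all genes called in that fit is not given, so the 11 calls are not read as particular to the members.

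Among cell type markers post-transplant, 2 of 7 myeloid genes, S100a9 and Lyz2, were called higher in TCF-1 cKO. Only 3 of these 7 were above 0, and their median log2 fold change was -1.21. Called lower were 2 of 4 CD4 T cell genes, Zbtb7b and Foxp3, 1 of 6 erythroid genes, Hba-a2, and 1 of 5 CD8 T cell genes. Of 7 B cell genes 0 were called. Of all genes tested, 2.51% were called higher and 15.4% lower. With the offset for GC content and length, 0 myeloid, CD4 T cell, erythroid and B cell genes were called, and 1 CD8 T cell gene was lower. The myeloid median was then 0.09. Cd4 itself had means of 3.92 normalized CPM in WT and 4.23 in TCF-1 cKO. The part of these markers in the histone values was not tested. The histone values also moved with GC content. Across all genes tested post-transplant, which are not independent replicates, log2 fold change and GC content had a Spearman's rho of -0.55 (n = 16026 genes), and the median log2 fold change fell from 0.81 at 40 to 42 percent GC to -2.55 at 58 to 60 percent. The tested members had a median GC content of 57.9%, and H2A genes 64.3%, against 49.7% for all genes tested. The offset subtracts a fitted trend on GC content and length from each library. Under it the median of all genes was -0.12 at 40 to 42 percent GC and -0.47 at 58 to 60 percent, so some trend stayed. The step from 64 to 66 percent, where the H2A median lay, held 39 genes, so the fit had few genes there. Under the offset 44 of the 63 members were above 0, and their median was 0.56 against -0.17 for all genes. The H2A sum turned to 0.55 ± 0.32 and the H3 sum to 1.12 ± 0.45, while H4 kept its sign at 0.45 ± 0.37. Hist1h2bj turned to 0.27 (adjusted p = 0.745 by edgeR), and Hist1h3c and Hist1h2al were not called (-0.19 and -0.71). The calls under the offset were Hist1h4m and Hist1h1b (1.60, adjusted p = 0.0873, edgeR), which were higher, and Hist1h2bc (-2.02, adjusted p = 0.0963, edgeR), which was lower. Members ending near the stem-loop moved from a median of -0.80 to 0.91, and members extending past it from -0.12 to -0.34. The direction of the H2A, H2B, H3 and H1 sums between the genotypes therefore depended on this choice.

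**Figure D4:**
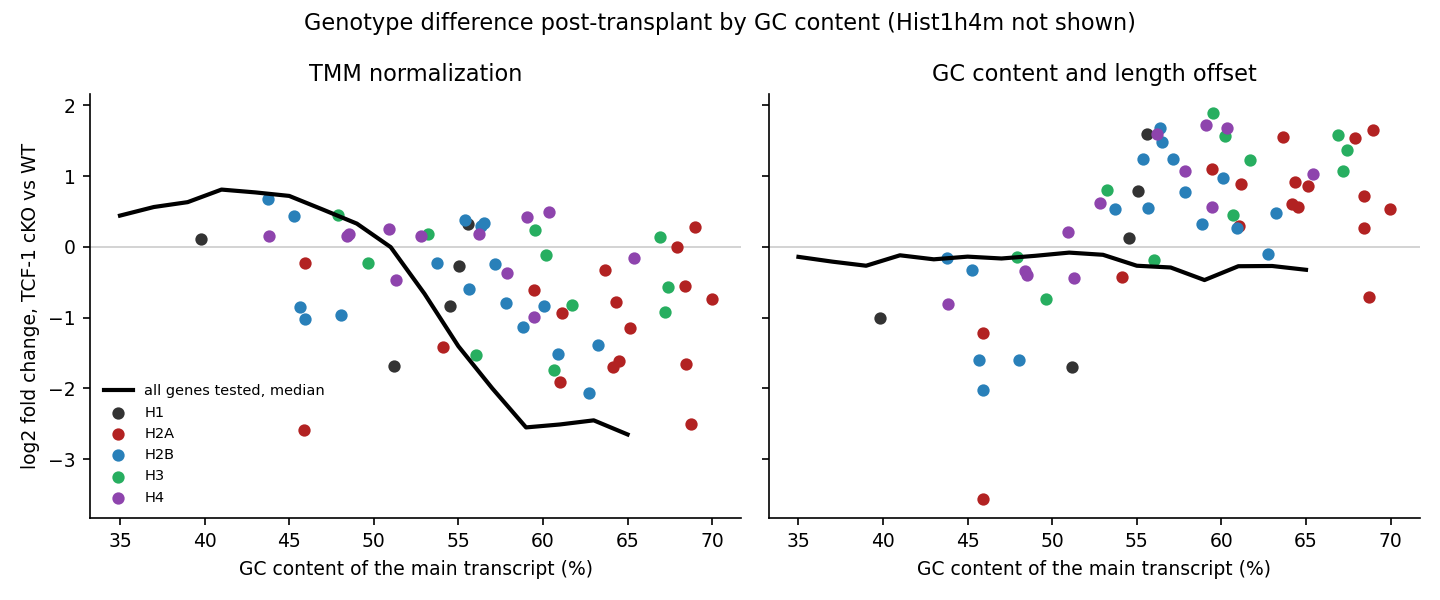
Log2 fold change of TCF-1 cKO against WT post-transplant by GC content for 62 members, coloured by class, with the median of all genes tested in 2 percent steps as a line, under TMM alone (left) and with the GC content and length offset (right). Under TMM alone most members lie below 0 and above the line at high GC content, and under the offset most members above 52 percent lie above 0.

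Hist1h4m was the 1 member called higher in TCF-1 cKO post-transplant. Its counts were 0, 3 and 0 in the WT and 395, 630 and 827 in the TCF-1 cKO libraries. In normalized CPM these are 0, 0.234 and 0 and 34.6, 49.4 and 51.2, and no WT library came near a TCF-1 cKO library. The ratio of summed counts, scaled for library size, was 693 with an exact 95% interval of 237 to 3364 that covers counting error only. The fitted log2 fold change of 8.92 ± 1.09 (adjusted p = 0.0448 by edgeR) depends on the prior count at such low WT levels, and under the offset it came to 10.87. The library labelled WT replicate 3, in which Tcf7 lay below the TCF-1 cKO libraries, had 0 counts of Hist1h4m as WT replicate 1 did. Pre-transplant, WT libraries had 0 counts each, and TCF-1 cKO libraries had 0, 2 and 112.

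Its copy Hist1h4n was present in both genotypes. It was at 47.5, 68.4 and 122 normalized CPM in WT and 115, 103 and 149 in TCF-1 cKO libraries (log2 fold change 0.42 ± 0.44, adjusted p = 0.558 by edgeR), with overlap through the library labelled WT replicate 3. Hist1h4m thus took 0, 0.341 and 0 percent of the pair's counts in WT and 23.2, 32.5 and 25.6 percent in TCF-1 cKO libraries, with exact 95% intervals up to 0.994 in WT and from 21.2 in TCF-1 cKO. In TCF-1 cKO pre-transplant libraries Hist1h4n had 16, 0 and 111 counts, and Hist1h4m took 0, 100 and 50.2 percent of the pair. The exact 95% intervals were 0 to 20.6, 15.8 to 100 and 43.5 to 57.0. The shares in replicates 1 and 2 rest on few counts, so the pre-transplant share rests on replicate 3. Summed, the pair was at 47.5, 68.6 and 122 in WT and 149, 152 and 199.8 in TCF-1 cKO libraries, a log2 fold change of 0.88 ± 0.44 without overlap. The transcripts can be told apart only by reads over base 36 or over the last bases of Hist1h4n, as the sequences above show, and the reads themselves were not analysed here. Transcripts of Hist1h4m and of a Hist1h4n allele carrying the same base cannot be told apart in these counts, so the ratio and the shares describe how reads were assigned. Of the class as a whole, 9 of 13 H4 genes were above 0, and Hist1h4m was the single call. Outside the H4 class, Hist1h2an and Hist2h2bb were also higher in all TCF-1 cKO than in all WT libraries, at log2 fold changes of 0.28 ± 0.46 and 0.38 ± 0.49 that were not called.

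**Figure D5:**
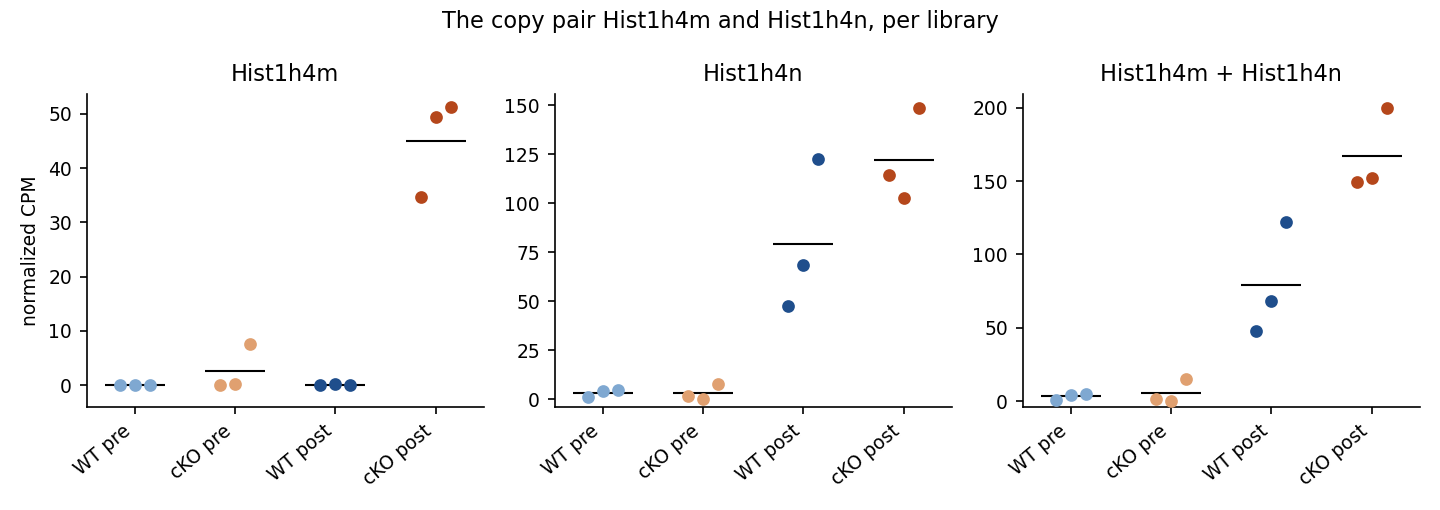
Normalized CPM of Hist1h4m, of Hist1h4n and of their sum in each library, with a bar at the mean of 3 libraries. Hist1h4m is at or near 0 in all WT libraries and between 34.6 and 51.2 in TCF-1 cKO post-transplant libraries, while Hist1h4n is present in both genotypes.

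Genes that act with the histones were called only as lower post-transplant, as most called genes were, with 15.4% of all genes called lower and 2.51% higher. In TCF-1 cKO, 13 of 40 S phase and DNA replication genes were lower and 0 higher, with a median log2 fold change of 0.22, and 7 were lower under the offset. Without overlap, 17 of them were higher and 13 lower, where 23.4% and 17.3% of all genes were. The helicase subunit Mcm3 (log2 fold change -2.51 ± 0.53, adjusted p = 0.0448 by edgeR) and the polymerase alpha subunit Pola2 (-2.69 ± 0.59, adjusted p = 0.0448 by edgeR) were among those of smallest p. Of the histone variants, H2afx, which is phosphorylated at DNA breaks, and H2afj were lower, of 9 tested. H2afx was at 540.3, 1387 and 163 in WT and 109, 72 and 69.8 in TCF-1 cKO libraries, and under the offset its log2 fold change was -0.88 and not called. The chaperones had 5 lower, with Cabin1 and Mcm2 first, the 3′ end processing genes 2, Sympk and Lsm11, and the transcription factors 4, with Nfyc, a subunit of the CCAAT-binding factor, and Gtf2i first. Under the offset 0 chaperones, 0 processing genes, 0 variants and 3 transcription factors were called lower. Slbp was at 181, 96.8 and 288 in WT and 595, 393 and 608 in TCF-1 cKO libraries (log2 fold change 1.27 ± 0.46, adjusted p = 0.12 by edgeR).

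The last question was whether the stage change differed between genotypes. Of 65 members tested for the interaction of genotype and stage, 0 were called by edgeR and 4 by DESeq2's Wald test, and 8 had an unadjusted p below 0.05. Of all 21526 genes, 0.00465% were called by edgeR and 15.7% had an unadjusted p below 0.05, and the DESeq2 share is not given. The interaction of the class sums was 0.42 ± 0.59 for H1, -1.19 ± 0.99 for H2A, -0.27 ± 0.61 for H2B, -0.05 ± 0.80 for H3 and 0.30 ± 0.69 for H4 on the log2 scale. The H2A value turned to 0.42 ± 0.68 under the GC content and length offset and to 0.23 without TCF-1 cKO pre-transplant replicate 3, and the H1 value was 1.04 ± 0.53 under the offset. Hist1h3h, an H3 gene, had the smallest p (log2 difference 5.70 ± 1.63, adjusted p = 0.233 by edgeR), being at 0 in the TCF-1 cKO pre-transplant libraries, and it was the 1 member called when the library labelled WT post-transplant replicate 3 was left out. Of the 70 members, 5 passed the filter on low counts in no comparison, namely Hist1h1t, Hist1h2aa, Hist1h2aj, Hist1h2ba and Hist2h2aa2.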

How the data were processed

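RNA-seq had been done on 12 libraries in 4 groups of 3. Per the file headers, the authors deposited for each library 1 table of estimated counts and TPM per transcript, and the submitters' processing notes name kallisto 0.46.2, limma and the build mm9. The authors' transcript release is not given in the sources used here. Transcripts were matched by identifier to GENCODE M21 (GRCm38), which held 116374 of 117497, and all 76 deposited member transcripts had the annotated length. Deposited estimated counts were summed per gene and rounded, and deposited TPM was summed for levels between genes.

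Each comparison used edgeR 4.0.16 (R 4.3.3) with filterByExpr, TMM, the quasi-likelihood test and Benjamini-Hochberg adjustment over all genes tested, at an FDR of 0.1, with only the 6 libraries compared, and all 12 for the interaction. The code was tested on simulated counts. Class sums were tested in no model. The offset was a loess fit (span 0.4, degree 2) of each library on GC content and then log length. A total of 13 kinds of alternative were run, among them DESeq2 1.42.0 and limma-voom (limma 3.58.1). Totals of 4520270 to 32657005 counts put the floor of 3 counts at 0.0919 to 0.664 CPM. Intervals and floors cover counting error only. Python 3.11.15 and SciPy 1.17.1 were used for the rest.

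The clustered histone genes and the lists were chosen for study with earlier results of these data known, and membership then followed the symbols alone. Members named were the H1 genes, the H4 copy pair and, by rule, the leading members by level and by p in each comparison, and further members were named after their values were seen. TCF-1 cKO post-transplant replicate 2, whose labels disagree on CD4 or CD8, was kept. It was at 622 normalized CPM for Cd8a, 1492 for Cd8b1 and 2.04 for Cd4.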

Additional observations from a re-analysis of the deposited data

How the results depend on the processing

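The stage counts stayed within 1.5 times their count under all alternatives, with 33 to 38 members called in WT and 39 to 52 in TCF-1 cKO when 1 library was left out. Members were called lower over the stages in TCF-1 cKO alone, 3 under library totals, 1 by limma-voom and 1 without post-transplant replicate 2. The genotype counts did not. Post-transplant, against 4 called members, DESeq2's Wald test called 10, library totals 1, a single fit of 12 libraries 1, libraries thinned to the smallest total 2 and the offset for GC content and length with the replicate block 2. Leaving out 1 library gave 0 to 11, with 11 without the library labelled WT replicate 3 and 0 without any other. For these alternatives, those over the stages included, the shares of all genes called are not given, so the counts do not set members against other genes. Pre-transplant, against 0, no filter on low counts gave 1, which was Hist1h4m, and leaving out 1 library gave 0 to 1, with 1 without TCF-1 cKO replicate 3. For the interaction, against 0, DESeq2's Wald test called 4 and leaving out 1 library gave 0 to 1. The cause of these shifts was not tested, except that the left-out fits have fewer libraries. Signs turned for Hist1h2ap post-transplant (0.56) and Hist1h2bj (0.27) under the offset, and for Hist2h2aa1 in TCF-1 cKO over the stages (-0.15) under library totals. Of values of the sums, 409 moved by less than 1 SD and 71 by more. Of the other alternatives for members, 363 left the call as it was, 42 ended one and 2 made one. In the genotype comparison post-transplant, 18 left the call as it was, 28 ended one and 2 made one, so most kept calls were stage calls. Replicate numbers did not pair the libraries, with correlations of same-numbered deviations from -0.106 to 0.115, and the replicate block called 4 members post-transplant, 0 pre-transplant, 38 in WT, 50 in TCF-1 cKO and 0 for the interaction. The 4 post-transplant were Hist1h4m, Hist1h2ap, Hist1h2ae and Hist3h2a, so Hist1h2bj, Hist1h3c and Hist1h2al were not called under the block. The small TCF-1 cKO pre-transplant totals limit what could be seen at low levels there.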
